A study of Mus musculus with 6 samples.

Results

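Ribosome biogenesis is the making of ribosomes, and 40 genes of this process are described here out of 21878 genes listed for mouse bone marrow cells sorted as long-term hematopoietic stem cells. The 40 are picked out by gene symbol, from a list drawn up with earlier results of these data known, and cover RNA polymerase I transcription (6 genes), small nucleolar ribonucleoproteins (8), assembly of the small (11) and of the large ribosomal subunit (10), and nucleolar proteins with several tasks (5). All 40 were found and all passed the filter on low values, at least 1 FPKM in at least 3 libraries (FPKM, fragments divided by gene length and by the size of the library). The cells came from wild-type (WT) mice kept for 3 months on a control diet (CD) or on a serine/glycine-free diet (SGFD), with 3 libraries per diet. The gate took cells without lineage markers, CD34 or CD135 and with c-Kit and Sca1. Strain, age and sex of the mice, and whether each library stands for one mouse or a pool, are not given in the sources used here, so the tests see only the spread from library to library, part of which may be technical.

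The ribosome is made mostly in the nucleolus. RNA polymerase I transcribes the ribosomal RNA precursor there, small nucleolar ribonucleoproteins (snoRNPs) modify and help to cleave it, and a large set of assembly factors joins it with ribosomal proteins into the small and the large subunit, which are exported to the cytoplasm. The transcription factor Myc is known to drive many of these genes through the E-box CACGTG. In blood stem cells the rate of protein synthesis is known to be low and closely held.

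The libraries were alike in depth, with 18427138 to 19531159 fragments recovered from the deposited values. The 40 genes were well covered, with 388 to 55616 fragments per gene and library, so the largest counting error of a single value was 5.08%. The sum of FPKM over all genes was higher with SGFD, at 464221.7 to 485047.8, than with CD, at 427769.3 to 433591.6, and most genes were lower: the median of 10620 tested genes was -0.13 on the log2(FPKM + 1) scale. Markers of other cells moved with diet. Granulocyte markers summed to 879 to 907 FPKM with CD and to 3476 to 3859 with SGFD (9 of 9 higher by limma), and monocyte markers to 64.9 to 65.9 and 217 to 232 (6 of 6 higher). Of 9 tested markers of long-term stem cells 7 were lower, with sums of 327 to 328 and 186 to 198, and the 4 tested erythroid markers were all lower, from 216 to 223 down to 97.1 to 101. Macrophage markers were lower in 4 of 4, from 7.81 to 9.23 down to 0.761 to 1.02. Lymphoid markers were lower in 3 of 4 (332 to 372 and 294 to 323, Cd3e at 0 in all libraries), and of 4 megakaryocyte markers 1 was higher and 1 lower (49.1 to 53.0 and 51.5 to 52.8). Against the gate, Cd34 stood at 471 ± 15.4 FPKM with CD and 429 ± 8.58 with SGFD, and Flt3, the gene of CD135, at 114 and 90.5 FPKM. Cd48, also absent from long-term stem cells as usually defined, was higher, at 67.9 and 87.0 FPKM. In bulk RNA of sorted cells, a change in the mix of cells and a change within cells cannot be told apart, and the part of these markers in what follows was not tested.

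With SGFD, 20 of the 40 genes rose, 3 fell and 17 did not pass (limma, adjusted p of 0.05 over all tested genes). Among all tested genes, 17.7% were higher and 41.8% lower, 59.4% in either direction. The rises were modest, from 11.7% to 51.2% of the CD mean, and the 3 falls, of Ubtf, Noc2l and Noc3l, were between 6.46% and 16.4%. Without any one CD library 1 gene, Noc3l, still passed as lower, and without SGFD replicate 2 there were 5. The median of the 40 was 0.14 on the log2 scale, which is 0.27 above the median gene, and 37 of the 40 lay above the median gene. Abundant genes in general had higher fold changes: Spearman's rho with mean FPKM in CD was 0.36 across all tested genes and 0.41 across the 40. In level the 40 ranged from above 44.1% of tested genes (Bysl) to above 99.3% (Npm1). The part of level in the distance from the median gene was not tested. The SGFD libraries lay wholly above the CD libraries for 24 of the 40, where 19.6% of all tested genes did so, and wholly below for 4 (Ubtf, Nop56, Noc2l and Noc3l), where 45.5% did so. For the other 12 the groups overlapped.

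**Figure D1:**
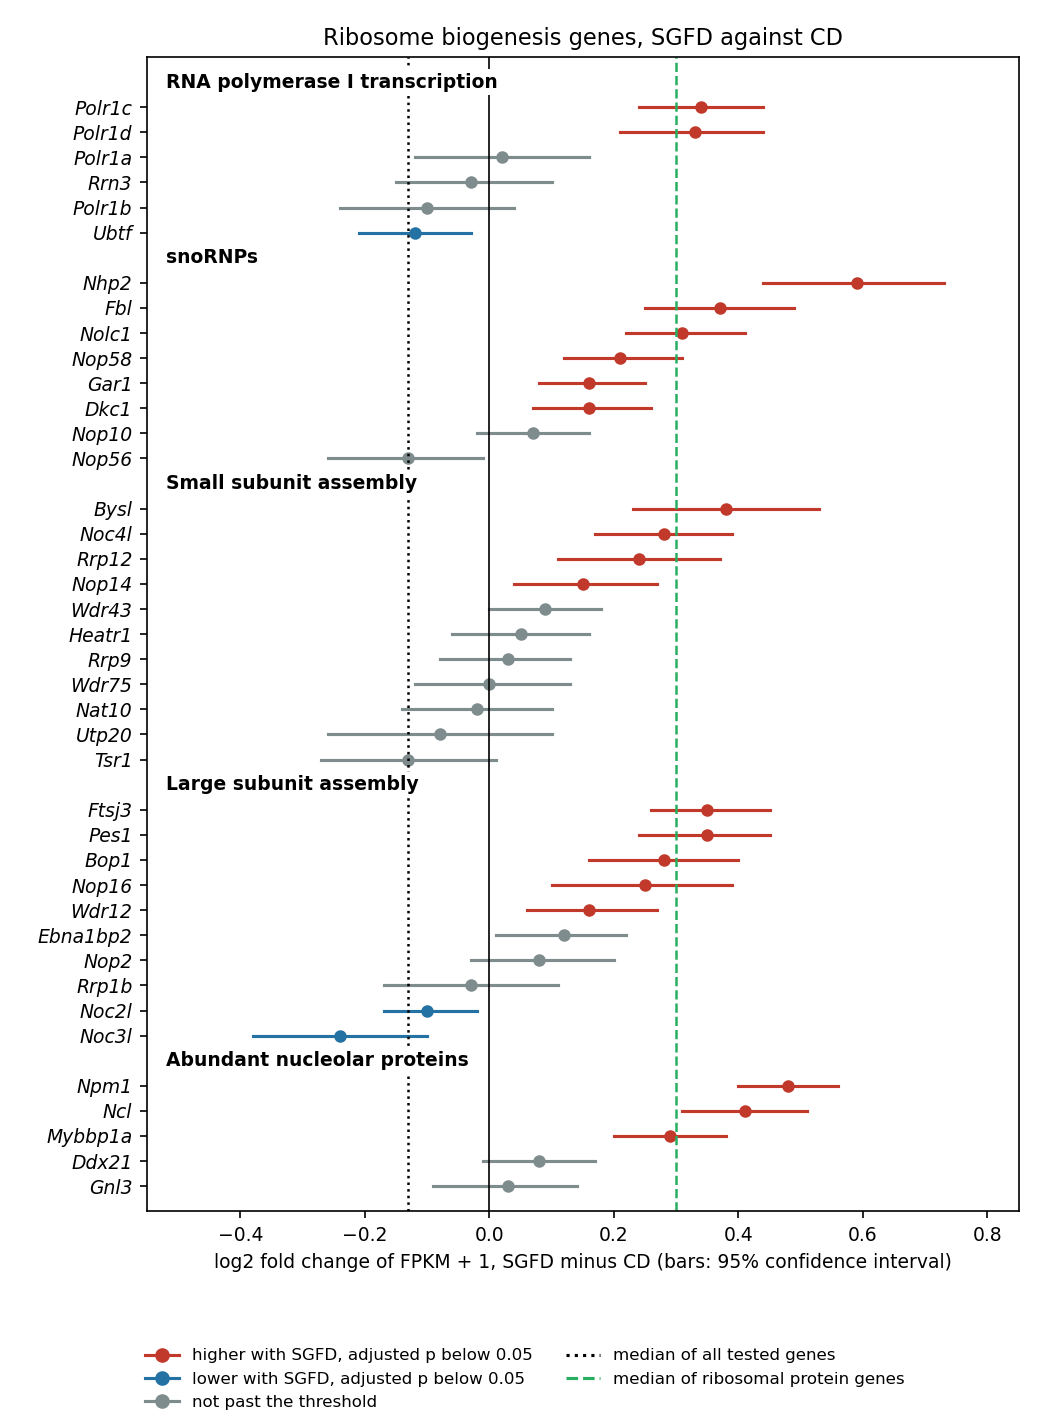
Fitted log2 fold change (SGFD minus CD, log2(FPKM + 1) scale) of each of the 40 genes, ordered within its role, with 95% confidence intervals from limma; red and blue mark genes past the threshold, and vertical lines the medians of all tested genes (dotted) and of ribosomal proteins (dashed). The genes run from -0.24 (Noc3l) to 0.59 (Nhp2), followed by Npm1 at 0.48.

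Of the nucleolar proteins with several tasks 3 of 5 genes rose, among them Npm1, the most abundant of the 40. Npm1 encodes nucleophosmin, the abundant histone chaperone and ribosome export factor of the outer nucleolus, and lies on chromosome 11 from 33152498 to 33164142 (GRCm38.p6). It stood at 878, 898 and 911 FPKM in the CD libraries and at 1286, 1235 and 1234 in the SGFD libraries. The groups were far apart, at 896 ± 16.7 against 1252 ± 29.7 FPKM (SD, n = 3 each), a rise of 39.8% (log2 0.48 ± 0.04 SE, limma adjusted p = 4.85e-06). Npm1 has processed pseudogenes, so the split of its fragments between copies is uncertain. Ncl encodes nucleolin, an RNA-binding protein of ribosomal RNA transcription and early processing, on chromosome 1 from 86344719 to 86359455. It went from 234, 245 and 242 FPKM with CD to 332, 302 and 325 with SGFD (log2 0.41 ± 0.04, adjusted p = 4.1e-05). Each SGFD library was again above each CD library. Mybbp1a, a nucleolar Myb-binding protein, rose from 121, 124 and 123 to 146, 149 and 156 FPKM (log2 0.29, adjusted p = 0.00016). The RNA helicase gene Ddx21 (log2 0.08, adjusted p = 0.128) and Gnl3, the nucleolar GTPase nucleostemin (log2 0.03, adjusted p = 0.646), did not pass. Ddx21 passed once SGFD replicate 3 was left out (adjusted p = 0.0407).

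Of the 6 genes of RNA polymerase I transcription 2 rose and 1 fell, and the rises were in subunits of the enzyme. The catalytic large subunit Polr1a stood at 21.3, 22 and 21.9 FPKM with CD and at 23.8, 20.3 and 22.2 with SGFD, with overlapping groups (log2 0.02 ± 0.06, adjusted p = 0.785). With the trend over gene length removed, a correction described further on, it passed as higher (log2 0.44, adjusted p = 0.00133 by annotated lengths, and 0.31, 0.00581 by lengths implied by the values). The second large subunit, Polr1b, read 18.4, 17.6 and 17.8 with CD and 16.2, 18.1 and 15.8 with SGFD (log2 -0.10, adjusted p = 0.193). It passed as lower when SGFD replicate 2, the one library inside the CD range, was left out (adjusted p = 0.0348) and after same-sum scaling (log2 -0.24, 0.0138), and as higher with the length trend removed by implied lengths (0.15, 0.0415). The assembly subunits Polr1c and Polr1d, which RNA polymerase III also uses, both rose. Polr1c went from 59.5, 61.4 and 61.9 FPKM to 78.6, 73.6 and 80.4 (log2 0.34 ± 0.05, adjusted p = 0.000148), and Polr1d from 42.4, 45.7 and 40.1 to 54.9, 54.2 and 52.3 (log2 0.33 ± 0.05, adjusted p = 0.000507). For both genes the lowest SGFD library was above the highest CD library.

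Neither of the factors that bring the polymerase to the ribosomal DNA passed as higher. Ubtf, the upstream binding factor that keeps ribosomal genes open, read 51.5, 51.2 and 51.3 FPKM with CD and 47.0, 46.3 and 48.3 with SGFD. The groups were apart although the difference was small (log2 -0.12 ± 0.04, adjusted p = 0.0281). Its call was lost without any one of CD replicates 1, 2 and 3 (adjusted p = 0.0866, 0.0692 and 0.076) or SGFD replicate 1 (0.0717), and median-ratio scaling turned its sign (log2 0.02). Ubtf passed as lower after quantile normalization (log2 -0.17, adjusted p = 0.00479) and same-sum scaling (-0.26, 0.000279), and as higher by implied lengths (0.16, 0.0223). Rrn3, the initiation factor that links polymerase I to the promoter, stood at 20.5, 20 and 19.3 with CD and 18.7, 19.9 and 20 with SGFD (log2 -0.03, adjusted p = 0.69).

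Of the snoRNP genes 6 of 8 rose and none of the 8 passed as lower. Box C/D particles, which guide methylation of ribosomal RNA, share the proteins Fbl, Nop56 and Nop58. Fbl encodes fibrillarin, the methyltransferase, and went from 245, 237 and 248 FPKM to 331, 286 and 328 (log2 0.37 ± 0.05, adjusted p = 0.000299). Nop58 rose from 161, 159 and 172 to 189, 195 and 187 FPKM (log2 0.21, adjusted p = 0.00162), while its partner Nop56 read 118, 115 and 121 with CD and 111, 114 and 98.1 with SGFD. All SGFD values of Nop56 lay below its CD values, by an amount that missed the threshold (log2 -0.13 ± 0.06, adjusted p = 0.0645), and it passed as lower without SGFD replicate 2 (adjusted p = 0.0157). Under the other scalings it ranged from log2 -0.29 after quantile normalization (adjusted p = 0.00318) to 0.01 after median-ratio scaling.

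Box H/ACA particles, which guide pseudouridylation, share Dkc1, Gar1, Nhp2 and Nop10. Nhp2, an RNA-binding core protein on chromosome 11 from 51619773 to 51623718, showed the largest change of the 40 in the values as deposited. Ncl was above it with the trend by annotated length removed (log2 0.79 against 0.48), and Bysl after quantile normalization (0.53 against 0.43). It stood at 106, 108 and 109.7 FPKM with CD and at 162, 147 and 181 with SGFD, a 1.51-fold difference of the means (108 ± 1.75 against 163 ± 17.2; log2 0.59 ± 0.06, adjusted p = 4.93e-05). The SGFD libraries of Nhp2 varied more than its CD libraries, and all lay above the CD range. Dkc1, the pseudouridine synthase dyskerin, rose from 87.4, 88.5 and 87.7 to 100.3, 94.3 and 101 FPKM (log2 0.16, adjusted p = 0.00603), and Gar1 from 73.7, 71.5 and 71.6 to 80.9, 81.8 and 80.3 (log2 0.16, adjusted p = 0.00437). The fourth protein, Nop10, read 148, 146 and 147 with CD and 156, 147 and 159.9 with SGFD and did not pass (log2 0.07, adjusted p = 0.154). It passed as higher without SGFD replicate 2 (adjusted p = 0.0179) and after median-ratio scaling (log2 0.21, 0.00506), and as lower by implied lengths (-0.10, 0.0368). Nolc1, a chaperone of snoRNPs in the nucleolus and Cajal bodies, rose from 71.3, 70.9 and 70.1 to 91.7, 83.7 and 89.3 FPKM (log2 0.31, adjusted p = 0.000212).

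**Figure D2:**
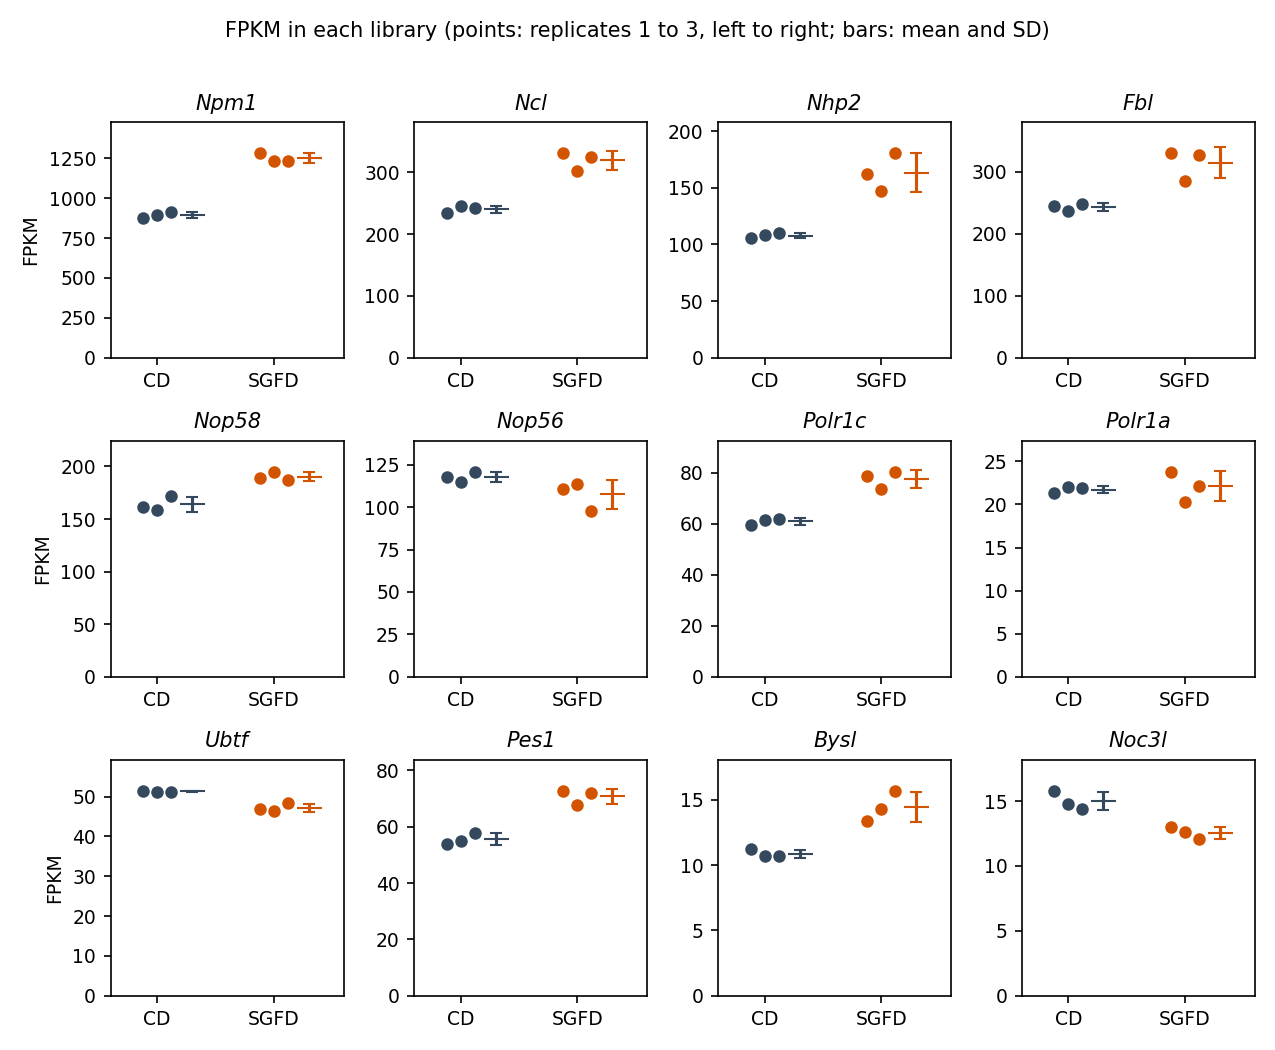
FPKM of 12 of the 40 genes in each of the 3 CD and 3 SGFD libraries, with the mean and SD of each group beside the points (axes from 0). Npm1, Ncl, Fbl and Nhp2 are separated between diets, while the points of Polr1a overlap.

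Assembly of the small subunit was the group of the 40 with the fewest changes relative to its size, 4 of 11 genes higher and none of the 11 lower by the test. Bysl, the bystin needed for late steps of the small subunit, was the least abundant of those that passed, at 11.2, 10.7 and 10.7 FPKM with CD and 13.4, 14.3 and 15.7 with SGFD (log2 0.38 ± 0.07, adjusted p = 0.000991). Noc4l, the partner of Nop14 in the early precursor, rose from 30.8, 30.0 and 30.2 to 36.3, 39.0 and 35.7 FPKM (log2 0.28, adjusted p = 0.00084). Rrp12, a factor of subunit export, went from 16.7, 18 and 16.8 to 21.5, 20 and 19.8 (log2 0.24, adjusted p = 0.00528). Nop14 itself rose least, from 31.8, 31.1 and 29.0 to 35.3, 34.0 and 33.3 (log2 0.15, adjusted p = 0.0245), and did not pass without CD replicate 3 (0.11) or SGFD replicate 1 (0.0876).

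The scaffold proteins of the early small-subunit precursor did not pass. Their log2 fold changes were 0.09 for Wdr43 (adjusted p = 0.0679), 0.05 for Heatr1 (0.368), 0.00 for Wdr75 (0.957) and -0.08 for Utp20 (0.391). Heatr1 and Wdr43 had every SGFD library above every CD library by a narrow margin, such as 22.9, 22.9 and 22.4 against 23.6, 24.1 and 23.1 FPKM for Heatr1. Rrp9, a protein of the U3 snoRNP (log2 0.03), and Nat10, the cytidine acetyltransferase of ribosomal RNA (log2 -0.02), had overlapping groups. Tsr1, which holds the late small subunit inactive, read 32.5, 30.3 and 31.8 with CD and 31.3, 28.3 and 26.6 with SGFD (log2 -0.13, adjusted p = 0.0898), and passed as lower without SGFD replicate 1 (adjusted p = 0.0232).

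In assembly of the large subunit, 5 of 10 genes rose and 2 fell. Pes1, Bop1 and Wdr12 encode the 3 proteins of the PeBoW complex, which acts in maturation of the large-subunit RNA, and all of them rose. Pes1 went from 53.8, 54.8 and 57.9 to 72.8, 67.8 and 72.0 FPKM (log2 0.35, adjusted p = 0.000171) and Bop1 from 47.2, 42.1 and 42.0 to 54.0, 51.1 and 54.8 (log2 0.28, adjusted p = 0.00155). Wdr12 rose less, from 27.3, 25.9 and 25.8 to 30.0, 29.5 and 29.2 (log2 0.16, adjusted p = 0.0136), and missed the threshold without CD replicate 2 (0.0502) or CD replicate 3 (0.0554). Ftsj3, a methyltransferase of ribosomal RNA, rose from 60.6, 59.8 and 59.5 to 76.2, 74.4 and 80.1 FPKM (log2 0.35 ± 0.04, adjusted p = 8.34e-05). Nop16 was the noisiest of the group, at 39.1, 45.4 and 39.6 with CD and 51.9, 45.9 and 50.2 with SGFD (log2 0.25, adjusted p = 0.00814), with its highest CD library just under its lowest SGFD library.

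The 2 large-subunit genes that fell encode proteins that bind each other, Noc2l and Noc3l, which act in transport of the precursor through the nucleus. Noc3l stood at 15.8, 14.8 and 14.4 FPKM with CD and at 13, 12.6 and 12.1 with SGFD (log2 -0.24 ± 0.06, adjusted p = 0.00719). This fall was as large as the rise of Rrp12, but it did not pass after median-ratio scaling (adjusted p = 0.144), quantile normalization (0.2) or removal of the length trend (0.471). After same-sum scaling it passed (log2 -0.37, adjusted p = 0.000733). Noc2l, 124, 122 and 122 with CD and 115, 115 and 115 with SGFD, was far more abundant and changed by less (log2 -0.10, adjusted p = 0.0395). Its call was lost without any one of CD replicates 1, 2 and 3 (adjusted p = 0.147, 0.0881 and 0.087), SGFD replicate 1 (0.0959) or SGFD replicate 3 (0.0557), and median-ratio scaling turned its sign (log2 0.04). Noc2l passed as lower after quantile normalization (log2 -0.25, adjusted p = 0.000191) and same-sum scaling (-0.24, 0.000201). The remaining genes of the group did not pass: Ebna1bp2 (log2 0.12, adjusted p = 0.0541), the methyltransferase gene Nop2 (0.08, 0.196) and Rrp1b (-0.03, 0.716). Ebna1bp2 passed without SGFD replicate 3 (adjusted p = 0.0302).

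Several of these proteins work in fixed complexes, so their ratio within a library was compared between diets, a measure that one scaling factor per library cannot move, although quantile normalization and length correction can. With 3 libraries against 3 the exact two-sided permutation test cannot give less than p = 0.1, and the 15 pairs, chosen with the values of the genes known, had adjusted values of 0.167 where that minimum was reached. The ratio of Fbl to Nop56 was 2.09, 2.07 and 2.04 with CD and 2.98, 2.50 and 3.34 with SGFD, and that of Nop58 to Nop56 1.37, 1.39 and 1.42 and 1.70, 1.71 and 1.91. Nhp2 to Dkc1 was 1.22, 1.22 and 1.25 with CD and 1.62, 1.55 and 1.78 with SGFD. These ratios were separated between diets. So were Polr1c to Polr1a (2.80, 2.79 and 2.83 against 3.30, 3.63 and 3.62) and Polr1d to Polr1a (1.99, 2.08 and 1.84 against 2.31, 2.68 and 2.35). With the trend by annotated length removed, the order of the polymerase subunits turned, with Polr1a at 0.44, Polr1c at 0.28 and Polr1d at 0.24 on the log2 scale. By lengths implied by the values the same subunits were close together, at 0.31, 0.26 and 0.30. Nhp2 and Dkc1, at 0.59 and 0.16 as deposited, came closer at 0.48 and 0.26 by annotated and 0.46 and 0.25 by implied lengths. Fbl and Nop56 were at 0.28 and -0.12 by annotated and 0.27 and -0.08 by implied lengths. How often ratios of other pairs of genes were separated was not computed. Other pairs kept overlapping ratios: Polr1d to Polr1c (log2 difference -0.01, exact p = 0.8), Gar1 to Dkc1 (0.00, exact p = 0.9), Pes1 to Bop1 (0.07, exact p = 0.7), Noc4l to Nop14, Fbl to Nop58 and Polr1b to Polr1a. Smaller separated differences were seen for Nop10 to Dkc1 (-0.09), Wdr12 to Bop1 (-0.12), Noc3l to Noc2l (-0.16) and Npm1 to Ncl (0.07). A gene-specific error, such as fragments from an overlapping gene, still enters a ratio.

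**Figure D3:**
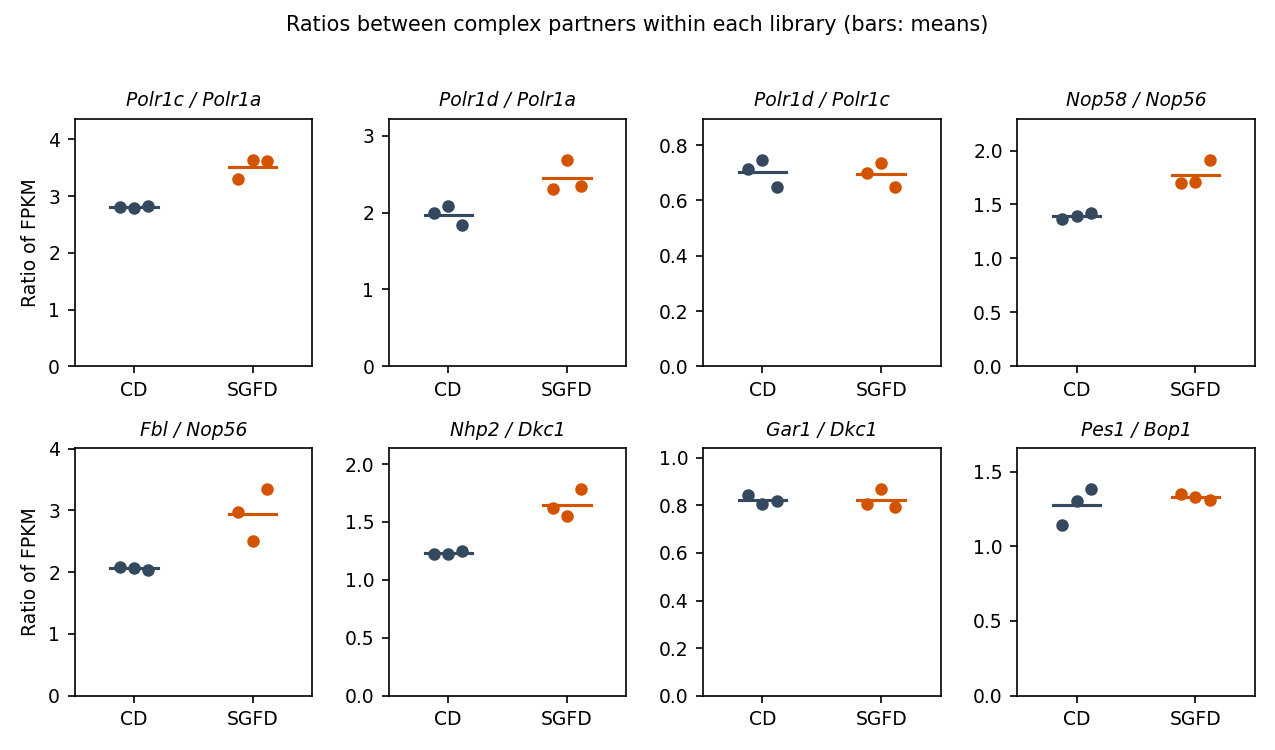
Ratio of FPKM of 2 partner genes within each library (linear axis from 0, bars are group means), for 8 of the 15 pairs compared. Fbl to Nop56 and Nhp2 to Dkc1 lie higher in all 3 SGFD libraries, and Gar1 to Dkc1 overlaps between diets.

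The ribosomal proteins are what these factors assemble with ribosomal RNA, and their rise is the comparison for the 40 genes. Of 79 cytosolic ribosomal protein genes 79 were higher with SGFD in the values as deposited, and 14 after quantile normalization, where 14 were lower. Quantile normalization gives every library the same set of values. As ribosomal proteins fill many of the top ranks, it holds them near 0 and cannot test their common rise. Their median was 0.30 on the log2 scale as deposited, which is 0.43 above the median gene, and -0.01 after quantile normalization. They spanned 0.10 to 0.47, whereas the 40 biogenesis genes spanned -0.24 to 0.59. Rpl41 was at the top (2215, 2232 and 2168 FPKM with CD, 3055, 2894 and 3256 with SGFD) together with Rps12 (log2 0.44), and Rps24 (500.3, 522 and 512 against 547, 529 and 572) and Rps27 (log2 0.13) were at the bottom. The call of Rps24 was close to the threshold (limma adjusted p = 0.0486), and both Rps24 and Rps27 were lower after quantile normalization (log2 -0.23 and -0.13). The highest rises among the biogenesis genes, of Nhp2 (0.59) and Npm1 (0.48), were as large as that of Rpl41 (0.47).

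Summed over genes, both sets grew by a like factor. The 40 biogenesis genes summed to 3399, 3405 and 3446 FPKM with CD and to 4244, 4078 and 4167 with SGFD, 1.22-fold, and the ribosomal proteins to 112986, 117158 and 113088 and to 141146, 133228 and 147994, 1.23-fold. The biogenesis sum was 3.01%, 2.91% and 3.05% of the ribosomal protein sum with CD and 3.01%, 3.06% and 2.82% with SGFD, which overlap. Much of the biogenesis sum was Npm1 and Ncl. Without them it grew 1.14-fold, and its share of all FPKM 1.03-fold, from 0.522% to 0.536% with CD to 0.538% to 0.553% with SGFD. The share of the ribosomal proteins went from 26.4% to 27% up to 28.7% to 30.5%.

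The counts depended on how the libraries are set against each other. Median-ratio scaling gave 29 of the 40 genes higher and 0 lower (28.8% and 26.8% of all tested genes), with a median of 0.27. Quantile normalization gave 16 higher and 3 lower (21.3% and 24.0%). Of the ribosomal proteins it gave 14 higher and 14 lower, with a median of -0.01, and it holds such abundant genes near 0 by its making. Scaling every library to the same sum gave 13 biogenesis genes higher and 8 lower (9.71% and 59.8%), with a median of -0.00, against 70 and 0 of the ribosomal proteins. Removing the trend with annotated transcript length gave 28 higher and 0 lower (25.5% and 21.5%), with a median of 0.25. Of the 79 ribosomal proteins it gave 62 higher and 1 lower, with a median of 0.17.

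Under all 5 scalings, the values as deposited included, 12 of the 40 genes were higher: Bop1, Bysl, Ftsj3, Mybbp1a, Ncl, Nhp2, Noc4l, Nolc1, Npm1, Pes1, Polr1c and Polr1d. None of the 40 was lower in all 5. Among all tested genes with a length, 8.34% were higher and 13.3% lower under all 5, and of the ribosomal proteins 14 of 79 were higher. The other 8 genes that rose did not pass throughout. Fbl missed the threshold after quantile normalization (adjusted p = 0.0868), Nop58 after quantile normalization (0.96) and same-sum scaling (0.183), Dkc1 likewise (0.461 and 0.594), and Gar1 after both (0.318 and 0.672) and with the length trend removed (0.0866). Rrp12 (0.154), Nop16 (0.135), Wdr12 (0.698) and Nop14 (0.814) missed it after same-sum scaling. Conversely, Wdr43, Heatr1, Nop2, Ebna1bp2 and Ddx21, which had not passed as deposited, passed as higher both after median-ratio scaling and with the length trend removed.

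**Figure D4:**
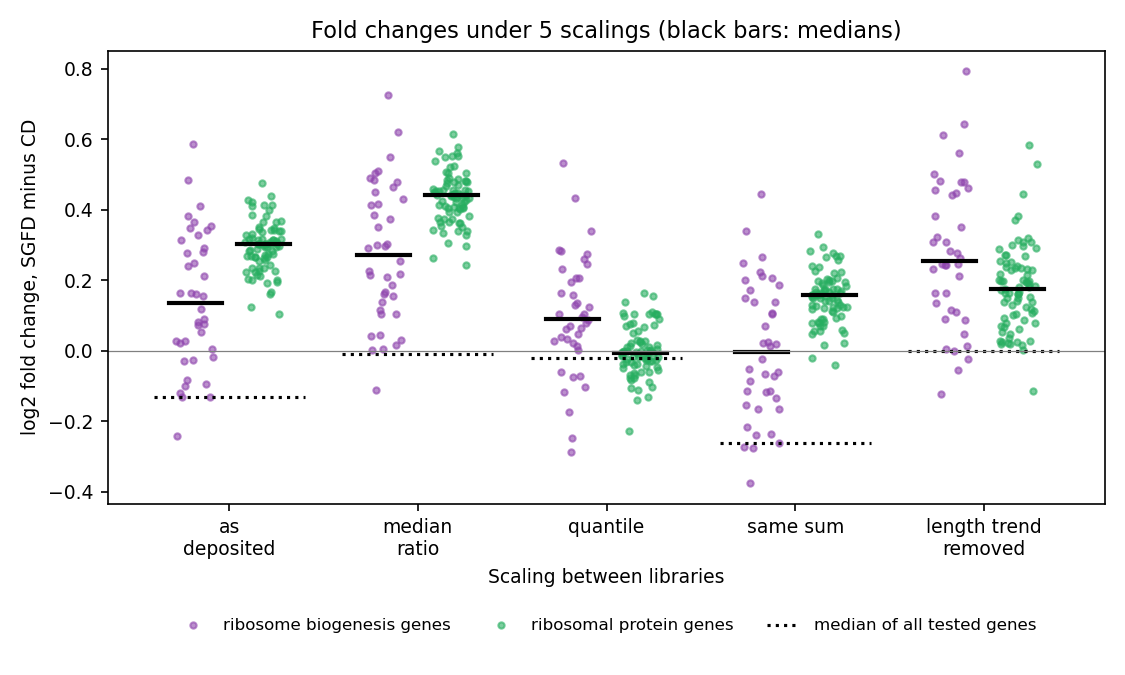
Log2 fold changes (SGFD minus CD) of the 40 biogenesis genes and the 79 ribosomal proteins, 1 point a gene, under 5 scalings of the libraries, with black bars for their medians and dotted lines for the median of all tested genes. The biogenesis median runs from -0.00 (same sum) to 0.27 (median ratio) and the ribosomal protein median from -0.01 (quantile) to 0.44 (median ratio). Quantile normalization fixes the values of the top ranks, many of them filled by ribosomal proteins.

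Gene length moved with the diet difference over the whole table. In 10 bins of length the median fold change went from 0.17 in the shortest (median 923 bases) to -0.39 in the longest (median 9565.5 bases). Ribosomal protein genes are short, with a median length of 798 bases against 2957 for the biogenesis genes and 3351 for all tested genes. Within their own bin, 35 of the 40 biogenesis genes and 78 of the 79 ribosomal proteins were above the bin's median. Across the 40 genes the fold change fell with length (Spearman's rho -0.42, as a description of genes from the same 6 libraries), and across all tested genes rho was -0.47. With the trend removed on these lengths, which are implied by the values and were brought in after the data were seen, 30 of the 40 were higher and 1 lower (24.6% and 21.3% of all tested genes). Of the 79 ribosomal proteins 57 were higher and 1 lower. The medians were then 0.25 for the biogenesis genes and 0.15 for the ribosomal proteins, the reverse of their order in the values as deposited. The implied length lay within 10% of the annotated one, used for the scaling above, for 48.7% of tested genes with both. For Nop58 the annotated length was 9507 bases and the implied one 2156, with log2 changes of 0.64 and 0.23 after the respective corrections. Whether RNA integrity or library making took part in the length trend was not tested.

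**Figure D5:**
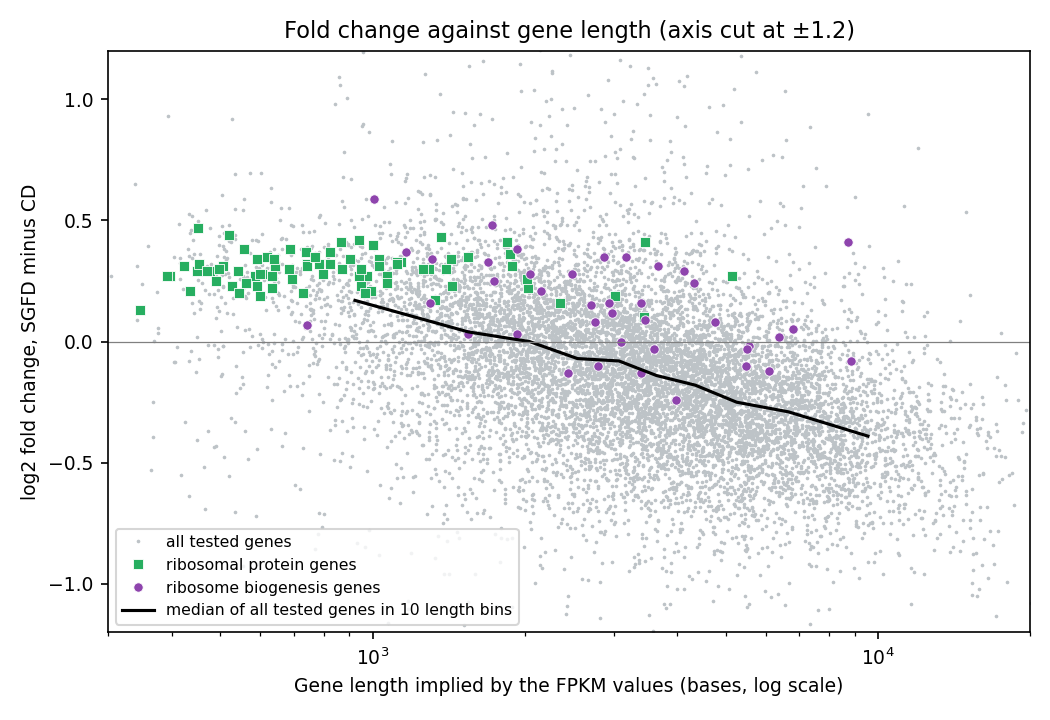
Log2 fold change (SGFD minus CD) against gene length implied by the values (log axis; the fold change axis stops at ±1.2), with the median of each of 10 length bins as a line. All tested genes, ribosomal proteins and the 40 biogenesis genes are marked; the bin medians fall from 0.17 to -0.39, and 35 of the 40 lie above the median of their bin.

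Of 141 further ribosome biogenesis genes 50 rose and 12 fell, with a median of 0.09, against 0.14 for the 40. These were 35.5% and 8.51%, against 17.7% and 41.8% of all tested genes. Same-sum scaling turned these counts to 20 and 40 (14.2% and 28.4%), where 9.71% of all tested genes were higher and 59.8% lower. Both as deposited and after same-sum scaling, 124 of the 141 lay above the median gene. In the polymerase I list 5 of 15 rose and 2 fell. The risers included Polr2f (81.4, 76.3 and 76.4 to 100.5, 99.5 and 102 FPKM) and Polr2k (11.8, 10.3 and 13.4 to 14.5, 15.7 and 16.1), small subunits that all nuclear RNA polymerases share. The others were the shared subunits Polr2e and Polr2h and the polymerase I subunit Polr1e, named after their values were seen (log2 0.19, 0.17 and 0.23); none of these 3 passed after same-sum scaling. Those that fell were Taf1a, a part of the promoter factor of polymerase I (7.53, 6.09 and 6.78 to 4.58, 5.38 and 3.44), and Ttf1, which ends its transcription (9.67, 8.46 and 9.31 to 6.62, 7.27 and 5.80).

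For snoRNP assembly, 2 of 11 rose, the box C/D protein gene Nhp2l1 (log2 0.26) and the ATPase gene Ruvbl2 (0.25), and Coil, the Cajal body scaffold, fell (-0.18, limma adjusted p = 0.0465). Among 48 small-subunit factors 19 rose and 4 fell. Tbl3 was the highest (27.3, 25.5 and 23.8 to 36.9, 35.2 and 36.8 FPKM, log2 0.49), followed by Pno1 (0.45), and the falls of Utp23 and Nol10 were small (-0.23 and -0.22). Of 53 large-subunit factors 19 rose and 4 fell. Eif6, which keeps the large subunit from joining the small one too early, rose from 78.8, 80.4 and 73.1 to 112, 101 and 110.4 FPKM (log2 0.47), and Mrto4, a placeholder for the stalk protein, by 0.44. Mdn1, the giant ATPase that strips factors off the large subunit, went the other way, as deposited by more than any other gene of the pathway lists, from 20.3, 19.2 and 21.1 to 9.36, 11.5 and 8.35 FPKM (log2 -0.99, adjusted p = 2.23e-05). Its change was -0.34 with the trend by annotated length removed (adjusted p = 0.00143), where Taf1a (-0.57) and Ddx55 (-0.35) were lower. Ddx55 also fell as deposited (log2 -0.45), and neither it nor Taf1a passed after quantile normalization (adjusted p = 0.0566 and 0.0525). In the exosome, which trims ribosomal RNA, 5 of 14 rose, Exosc5 (0.43) and Exosc6 (0.27) the most, and the catalytic subunit gene Exosc10 fell (-0.21). After median-ratio scaling Coil, Utp23, Nol10 and Exosc10 did not pass as lower.

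In the Myc network, both the activators Myc and Mycn and several antagonists were lower. In the values as deposited 5 of 8 regulators fell (62.5%, against 41.8% of all tested genes) and none of the 8 passed as higher (against 17.7%). Myc read 145, 146 and 144 FPKM with CD and 109, 117 and 108 with SGFD (log2 -0.37, adjusted p = 5.27e-05), and Mycn, its relative in stem cells, 14.6, 14.4 and 14.6 and 3.43, 4.35 and 3.48 (log2 -1.71, adjusted p = 2.04e-07). The antagonists Mnt (-0.39), Mxd3 (-0.56) and Mxd4 (-0.38) were lower too, Mxd3 not passing after quantile normalization (adjusted p = 0.0632) and Mnt not by implied lengths (log2 -0.10, adjusted p = 0.231). Max, the shared partner (-0.01), Mxd1 (0.11) and Maf1, the repressor of polymerase III (0.02), did not pass as deposited. The antagonist Mxd1 passed as higher after quantile normalization (log2 0.37, adjusted p = 0.00583) and by annotated (0.34, 0.00998) and implied lengths (0.34, 0.0114). Max and Maf1 passed as higher after median-ratio scaling (adjusted p = 0.0495 and 0.0247) and as lower after same-sum scaling (0.0122 and 0.0366).

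Since Myc binds CACGTG, the 250 bases before 1 start of each gene, the first listed, were searched for these letters, which read the same on both strands. For some genes, such as Ubtf, Noc2l, Noc3l, Polr1d and Nat10, this window lies inside the gene by its outer coordinates. Of the 40 genes 36 had an entry in the RefSeq promoter table (GRCm38.p6), and 2 of these held the E-box, which is 5.56%. Npm1, Fbl, Bop1 and Rrp12, which all rose, had no entry and were not searched. The shares were 8.82% of 8278 tested genes, 6.90% of 58 ribosomal proteins and 8.62% of 116 other pathway genes with an entry. The 2 were Rrn3 (2 copies) and Nop2 (1 copy). They are printed for the E-box, in capitals, on the plus strand at chr16:13780449-13780698 and chr6:125131633-125131882, and the stretch before Nhp2, chr11:51619523-51619772, is printed beside them as the gene with the largest change as deposited.
Rrn3: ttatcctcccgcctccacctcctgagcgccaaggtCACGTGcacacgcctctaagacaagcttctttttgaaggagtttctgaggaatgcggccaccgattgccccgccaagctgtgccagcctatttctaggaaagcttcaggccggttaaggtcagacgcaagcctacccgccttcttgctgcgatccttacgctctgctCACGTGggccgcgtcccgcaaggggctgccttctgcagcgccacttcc
Nop2: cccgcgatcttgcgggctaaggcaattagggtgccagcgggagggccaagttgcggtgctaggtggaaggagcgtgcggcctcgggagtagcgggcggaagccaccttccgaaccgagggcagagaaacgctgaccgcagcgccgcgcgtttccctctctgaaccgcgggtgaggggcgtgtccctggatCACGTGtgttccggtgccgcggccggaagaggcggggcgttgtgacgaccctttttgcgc
Nhp2: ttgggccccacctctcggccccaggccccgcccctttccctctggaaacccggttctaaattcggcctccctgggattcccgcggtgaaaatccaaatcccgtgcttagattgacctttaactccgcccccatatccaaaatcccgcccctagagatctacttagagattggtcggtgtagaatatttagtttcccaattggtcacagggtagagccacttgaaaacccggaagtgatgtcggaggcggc
Neither Rrn3 nor Nop2 passed the test, and Nhp2 has no CACGTG in this window. A match or its absence says only which letters are in these bases.

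Some of the 40 genes hold or touch other transcripts. Genes for small nucleolar RNAs lie inside 7 of them (Nop56, Nop58, Dkc1, Wdr43, Tsr1, Ncl and Gnl3), of which 3 rose and 0 fell, with a median of 0.09, against 17 and 3 of the other 33, with a median of 0.15. Exons of 17 overlap exons of a gene on the opposite strand, among them Nhp2 (with Rmnd5b), Nop56 (Idh3b), Bysl (Ccnd3), Bop1 (Mroh1), Pes1 (4930556J24Rik), Mybbp1a (Spns2) and Noc2l (Samd11). The kit keeps strand, but whether the counting used it is not given in the sources used here, so fragments of such pairs may not be told apart.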

How the data were processed

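RNA sequencing values of 6 libraries were used, 3 of each diet. Tools named in the submitters' processing notes are fastp, HISAT2 and StringTie, without versions, with the builds GRCm38 and mm10. The authors deposited 1 table per library with a value per gene symbol. Per the values, the deposited unit is FPKM (fragments per kilobase, scaled to the library total), since 15508 of 15509 genes above 0 gave whole fragments within 0.02 (3 of 300 perturbed genes also did), up to a whole factor per gene; lengths implied by the values follow from the same step. The labels' protocols name a stranded mRNA kit and RNA from sorted cells.

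From these values log2(FPKM + 1) was fitted with limma 3.58.1 (trend, robust; R 4.3.3) on 10620 genes that reached 1 FPKM in 3 or more libraries. Tests were two-sided, with Benjamini-Hochberg adjustment over these genes and a threshold of 0.05. The pseudocount shrinks the fold changes of weakly expressed genes, and percentages are of mean FPKM. The code was tested on simulated data. The 40 genes and the lists were chosen with earlier results of these data known. All 40 are accounted for; values in every library were due for the 4 largest changes per role past the threshold and 9 set genes, and others are given so as a description. Of ribosomal proteins the 2 largest and 2 smallest changes are named, of other pathway lists the 2 largest per direction, and all tested regulators. Alternatives were filters of none and 5 FPKM, pseudocounts of 0.1 and 0.01, 4 scalings, the replicate number as a block, another variance model and leaving out each library; removal of the length trend with implied lengths was chosen after seeing the data. Coordinates and promoter sequences are RefSeq's (GRCm38.p6); annotated lengths, exon overlaps and snoRNA genes are from GENCODE vM21.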

Additional observations from a re-analysis of the deposited data

How the results depend on the processing

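With the values as deposited, 20 members were higher and 3 lower, with a median of 0.14, and the count of higher members stayed between 18 and 22 without any one library. The count of lower members ranged from 1 (without any one CD library) to 5 (without SGFD replicate 2), and that of other ribosome biogenesis genes from 6 to 12. Median-ratio scaling gave 3054 of all genes higher and 2844 lower, 0 members lower, 89 and 4 other ribosome biogenesis genes, and medians of 0.27 (members) and -0.006 (all genes). Same-sum scaling gave 1031 of all genes higher and 6350 lower, 13 and 8 members, 20 and 40 other ribosome biogenesis genes, and medians of -0.003 and -0.26. Quantile normalization gave 2552 of all genes lower, 14 and 14 ribosomal proteins, 5 other ribosome biogenesis genes lower, and medians of 0.092 and -0.017. Removing the length trend by annotated and by implied lengths gave 2215 and 2266 of all genes lower, 0 and 1 members, 1 and 1 ribosomal proteins and 5 and 5 other ribosome biogenesis genes lower, and medians of 0.25 and 0.25 (members) and 0.003 and 0.002 (all genes). Without trend and robust settings 1 of the members was lower. The median of all genes was -0.057 with no filter on low values and -0.086 with at least 5 FPKM. Replicate numbers did not pair the libraries (correlations of deviations -0.01, -0.23 and -0.13 for the same number). With the replicate number as a block 20 members were higher and 1 lower, 77 ribosomal proteins higher, and 7 other ribosome biogenesis genes lower, and Ubtf and Noc2l lost their calls. The cause of these shifts was not tested.

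Of the named genes, 74 values changed sign under an alternative and 87 lost and 38 gained a call, against 989 on the same side. Same-sum scaling turned the sign of Polr1a -0.116, Nop10 -0.071, Wdr43 -0.051, Wdr75 -0.134, Heatr1 -0.085, Rrp9 -0.113, Nop2 -0.059, Ebna1bp2 -0.022, Ddx21 -0.066, Gnl3 -0.113, Rps24 -0.040, Rps27 -0.019, Mxd1 -0.004 and Maf1 -0.117 (log2). Median-ratio scaling turned the sign of Polr1b 0.031, Ubtf 0.017, Rrn3 0.105, Nop56 0.006, Utp20 0.046, Nat10 0.115, Tsr1 0.002, Noc2l 0.042, Rrp1b 0.103 and Max 0.129 (log2). Quantile normalization turned the sign of Polr1b 0.015, Rrn3 0.066, Nop10 -0.071, Utp20 0.071, Nat10 0.079, Rrp1b 0.086, Ddx21 -0.061, Gnl3 -0.074, Utp23 0.011, Rps24 -0.227, Rps27 -0.132 and Maf1 -0.041 (log2). Removing the trend by annotated length turned the sign of Polr1b 0.086, Ubtf 0.110, Rrn3 0.135, Nop10 -0.024, Utp20 0.322, Rrp9 -0.001, Nat10 0.164, Tsr1 0.014, Noc2l 0.005, Rrp1b 0.212, Rps27 -0.114 and Max 0.011 (log2). Doing so by implied length turned the sign of Polr1b 0.153, Ubtf 0.157, Rrn3 0.111, Nop10 -0.099, Utp20 0.276, Rrp9 -0.024, Nat10 0.239, Rrp1b 0.226, Rps27 -0.160 and Max 0.055 (log2). Without one library, the log2 change crossed 0 for genes that had not passed: Polr1a -0.031 to 0.080, Rrn3 -0.050 to 0.003, Wdr75 -0.042 to 0.036, Utp20 -0.155 to 0.003, Rrp9 -0.008 to 0.052, Nat10 -0.033 to 0.013, Rrp1b -0.067 to 0.012, Gnl3 -0.016 to 0.064, Max -0.033 to 0.015 and Maf1 -0.000 to 0.062.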
